A study of Mus musculus with 36 samples.

Results

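Transcripts that the array still names after RIKEN cDNA clones of the B230, C130 and C330 series were followed in 3 brain regions, the hippocampus (HIP), the prefrontal cortex (PFC) and the nucleus accumbens (NAc), of mice given histone deacetylase (HDAC) inhibitors. The members were chosen by symbol and by signal: a probe was taken when its symbol consisted of B230, C130 or C330, a clone number and the suffix Rik, and when its detection p-value, the scanner software's probability that a signal came from background, was at most 0.01 in all 3 vehicle arrays of at least 1 region. Of the 376 probes with such symbols (326 symbols) on the array, 103 probes (93 symbols) qualified, 57 of them B230, 28 C130 and 18 C330. They were 103 of the 16910 probes detected by the same rule and of the 45281 probes on the array. The remaining 273 probes were below this limit.

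The study compared 4 treatments in adult male mice, given as C57BL/6J in the labels and as C57BL/6 from 2 suppliers in the methods, each by 10 daily intraperitoneal injections with tissue taken 1 h after the last. Vehicle (saline, PEG-400 and DMSO, 7.5 mL/kg) was compared with Cpd-60 at 45 mg/kg in 7.5 mL/kg, with SAHA at 25 mg/kg in 5 mL/kg and with CI-994 at 10 mg/kg in 5 mL/kg. RNA of 2 mice was pooled for each array and the same mice gave all 3 regions, so that each treatment and region had 3 pools, numbered 1 to 3, and there were 36 Illumina MouseWG-6 arrays in all. The injected volume of SAHA and CI-994 thus differed from that of vehicle, and pooling of 2 mice left no measure of the spread between single animals. Which supplier a pool came from is not given in the sources used here.

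HDACs remove acetyl groups from histone tails, and their inhibition raises acetylation and changes transcription. Cpd-60 is a benzamide that inhibits HDAC1 and HDAC2, the catalytic subunits of large corepressor complexes; CI-994 is also a benzamide, and SAHA (vorinostat) is a hydroxamic acid with little selectivity among zinc-dependent HDACs. RIKEN clone symbols come from the large-scale sequencing of full-length mouse cDNAs. A clone symbol is a placeholder, not a gene family: some clones were later assigned to protein-coding genes, others to long noncoding RNAs (lncRNAs) or to unspliced or alternatively terminated transcripts of genes known by another name.

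Of the 93 symbols, 52 matched a current RefSeq symbol or synonym (GRCm38.p6 annotation), 47 of them protein-coding genes and 5 lncRNAs. In 45 cases the clone now carries another gene name, and 7 keep the clone name. The renamed genes include synaptic and neuronal ones: B230112P13Rik is Syt7, a calcium sensor of synaptic vesicle and lysosome exocytosis, C130076O07Rik is the neuronal adhesion molecule Nrcam, B230208N19Rik and B230362M20Rik are the GABA-A receptor subunits Gabrb1 and Gabrg3, and C330002I19Rik is Kidins220, a scaffold of neurotrophin receptors. The other 41 symbols, among them C330006P03Rik, B230387C07Rik and C130080K17Rik, are given here by clone name only. Among the 1903 other RIKEN clone symbols detected in these arrays, 72.2% matched, against 55.9% of the member symbols.

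The loci that keep a clone name include protein-coding genes and lncRNAs. The 300-base RefSeq windows across the annotated start, most of each upstream of it, are given 5′ to 3′ for the loci below. They are C130074G19Rik (a protein-coding gene with the highest signal in the PFC), B230209E15Rik (an lncRNA) and B230219D22Rik (a protein-coding gene). In vehicle the mean log2 signal of B230219D22Rik was 8.69 in the PFC (SD 0.12), 8.90 in the NAc (SD 0.50) and 9.13 in the HIP (SD 0.24). Each CG dinucleotide, the site of DNA methylation, is in capitals.
C130074G19Rik, GRCm38.p6 chr1:184882987-184883286, minus strand: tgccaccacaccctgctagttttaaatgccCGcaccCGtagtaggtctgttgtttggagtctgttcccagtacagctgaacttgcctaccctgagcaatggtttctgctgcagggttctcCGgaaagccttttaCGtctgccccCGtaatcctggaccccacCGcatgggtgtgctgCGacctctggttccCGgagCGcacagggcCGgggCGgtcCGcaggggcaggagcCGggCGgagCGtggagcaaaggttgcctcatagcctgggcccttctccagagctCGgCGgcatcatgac
B230209E15Rik, GRCm38.p6 chr7:61615278-61615577, minus strand: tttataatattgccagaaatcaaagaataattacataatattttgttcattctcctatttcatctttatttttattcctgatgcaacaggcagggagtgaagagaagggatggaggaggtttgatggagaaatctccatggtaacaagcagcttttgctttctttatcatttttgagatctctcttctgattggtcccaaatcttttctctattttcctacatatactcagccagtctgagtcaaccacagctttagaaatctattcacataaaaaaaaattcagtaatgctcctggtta
B230219D22Rik, GRCm38.p6 chr13:55692874-55693173, plus strand: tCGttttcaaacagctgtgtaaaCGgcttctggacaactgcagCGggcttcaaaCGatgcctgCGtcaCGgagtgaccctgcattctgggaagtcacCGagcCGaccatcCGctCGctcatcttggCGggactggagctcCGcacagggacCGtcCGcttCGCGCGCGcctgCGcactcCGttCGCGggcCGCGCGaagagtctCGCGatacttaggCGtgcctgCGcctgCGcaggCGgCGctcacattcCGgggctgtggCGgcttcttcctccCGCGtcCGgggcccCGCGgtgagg
The first window holds 17 CG dinucleotides, the second 0 and the third 39. Over 32851 RefSeq windows of the same length the median was 7, and 68.6%, 0% and 95.6% of the windows held fewer than these. The CG count varied among the lncRNAs: the window of C330013E15Rik holds 36 (93.8% of windows held fewer), and the 2 windows of B230311B06Rik hold 4 and 6. So few loci cannot show whether the count goes with the kind of locus. The counts are a description of the letters; no methylation was measured.

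Arrays of 1 group correlated between 0.953 and 0.995 over the detected probes, and between 31.9% and 43.3% of all probes were detected per array. Both ends of that range were Cpd-60 arrays of the NAc, pool 1 with 31.9% and pool 3 with 43.3%. The SAHA HIP arrays of pools 2 and 3 had the lowest shares of that region (32.1% and 32.3%). Every region had its own pair of BeadChips with 6 arrays on each, so that region and BeadChip cannot be told apart. All 9 striatal markers were highest in the NAc, 5 of 5 detected cortical markers in the PFC and 6 of 7 hippocampal markers in the HIP, the exception being Wfs1 (mean log2 intensity 8.54 in the HIP and 10.4 in the NAc). The arrays hold bulk tissue, in which fewer cells of a type and less RNA per cell cannot be told apart.

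In the vehicle arrays the members gave low to middling signals. The median of their mean log2 intensity was 7.25 (quartiles 6.84 and 8.12, range 6.70 to 11.1), against 7.52 for the detected probes that are no member and 7.23 for the 2255 probes of other RIKEN clones. Signals of different probes also depend on the probe, so no order of abundance is read from them. The highest vehicle signals were those of B230209E15Rik, B230343A10Rik (Gas7) and C330002I19Rik (Kidins220), and the lowest those of C130073D16Rik (Zfp384, a zinc finger protein), B230310H07Rik and C330006F04Rik. Of the 103, 74 were detected in all 3 regions, 13 in 2 and 16 in 1 (PFC 4, NAc 7, HIP 5). The share detected in all 3 regions was 71.8%, against 70.8% for other RIKEN clones and 77.0% for the remaining probes. The members nearest to the limit were B230378H13Rik and B230310H07Rik, whose highest detection p-value in their best region was 0.00972 and 0.00863; just outside it were C130045I22Rik, C330006H24Rik and C130007P11Rik at 0.0108.

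The first question was whether the inhibitors changed these transcripts. With limma and Benjamini-Hochberg adjustment over all 16910 probes, 0 members and 0 probes of any kind (0%) passed an adjusted p of 0.05 in any of the 9 comparisons of a drug with vehicle within a region. The values below are therefore descriptions of the pools, and counts at an unadjusted p under 0.05 are given beside the share of all tested probes that met the same condition in the same direction. The 3 vehicle arrays of a region serve all 3 drugs and also selected the members. Members selected on the drug arrays alone gave the same counts to within 1 in every comparison.

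Cpd-60 gave the largest count, in the NAc, where 10 members were lower and 2 higher than vehicle. These were 9.71% and 1.94% of the members, while 2.51% of all tested probes were lower and 1.58% higher, and 4.17% and 0.71% of other RIKEN clone probes. The 10 lower members were C330006P03Rik, B230387C07Rik, C130080K17Rik, C130022E19Rik, B230209E15Rik, C330023M02Rik, B230345P09Rik, B230334I05Rik, B230310H07Rik and C330023J09Rik. In 8 of the 10 all 3 Cpd-60 pools lay below all 3 vehicle pools, as they did for 81.8% of the 424 probes of any kind that met the same condition; B230209E15Rik and B230345P09Rik (Celf2, an RNA-binding splicing regulator) overlapped. Across all 103 members the median difference in the NAc was -0.029 on the log2 scale, with 65 members below 0 and 38 above. It was -0.0079 for other detected probes of like intensity (the same of 10 equal bins). For the 2255 probes of other RIKEN clones it was -0.024, with 1329 below 0 and 926 above, so most of this shift was not particular to the members. Without Cpd-60 pool 1, 2 or 3, or a vehicle pool, the number of lower members was between 5 and 10. In the NAc the summed signal of the 7 microglia markers was 10.75 to 10.83 on the log2 scale in the Cpd-60 pools and 10.85 to 10.90 in the vehicle pools, without overlap, and that of the 3 blood markers was 12.33 to 12.99 and 12.98 to 13.49; their part in these counts was not tested.

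In the PFC 4 members were higher and 3 lower under Cpd-60, when 2.23% and 2.38% of all probes were. In the HIP 3 were higher and 4 lower, against 2.29% and 2.95% of all probes. The medians over the members were -0.0090 in the PFC and 0.0029 in the HIP, and those of probes of like intensity -0.0041 and -0.0029. In neither region did the members as a whole stand away from 0 by more than the spread between pools, whose medians in the PFC were 0.035, -0.021 and 0.022. In the PFC the summed log2 signal of the 5 endothelial markers was 10.05 to 10.18 under Cpd-60 and 10.20 to 10.29 in vehicle, without overlap. That of the 7 hippocampal markers was 11.200 to 11.368 and 11.185 to 11.196. The part of these markers in the PFC values of the members was not tested.

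Under SAHA few members met the condition in the PFC and NAc. In the PFC 0 were higher and 1 lower, against 0.775% and 0.651% of all probes, and in the NAc 1 was higher and 1 lower, against 0.444% and 0.934%. Over the alternatives the NAc counts were 0 to 7 higher and 0 to 4 lower, and blocking on BeadChip gave 2 and 4 (1.28% and 1.64% of all probes). The summed log2 signal of the 7 astrocyte markers in the NAc was 13.31 to 13.46 under SAHA and 13.03 to 13.28 in vehicle, without overlap. Those of the 4 choroid plexus markers (9.82 to 10.37 and 9.48 to 9.74) and the 3 blood markers (12.59 to 12.95 and 12.98 to 13.49) did not overlap either. The part of these markers in the NAc values was not tested. In each region 1 SAHA pool and 1 CI-994 pool lay on the first BeadChip and 2 of each on the second, whereas 2 vehicle pools lay on the first and 1 on the second. In the HIP 4 were higher and 1 lower, when 3.59% of all probes were higher and 5.19% lower. The lower count was 6 with neqc normalization, a background correction from the detection p-values (5.83% of the members and 5.98% of all probes), and 3 when blocking on BeadChip (2.91% and 4.41%). The HIP arrays include the SAHA pools 2 and 3 with few detected probes, and without each pool in turn the count of higher members lay between 2 and 7.

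CI-994 gave 0 higher and 2 lower members in the PFC (1.93% and 1.47% of all probes), 0 higher and 2 lower in the NAc (0.325% and 0.852%), and 1 higher and 4 lower in the HIP (1.34% and 1.39%). Over the alternatives 0 to 5 were higher and 0 to 7 lower in the PFC, 0 to 2 and 1 to 6 in the NAc, and 0 to 7 and 3 to 8 in the HIP. These ranges include other detection filters, with up to 376 probes with these symbols, and have no share of all probes beside them. Blocking on BeadChip gave 6, 6 and 4 lower members. These counts are not set against the share of all probes under the same block, so they show no excess of members. The medians over the members lay between -0.021 and 0.0099 for this drug.

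**Figure D1:**
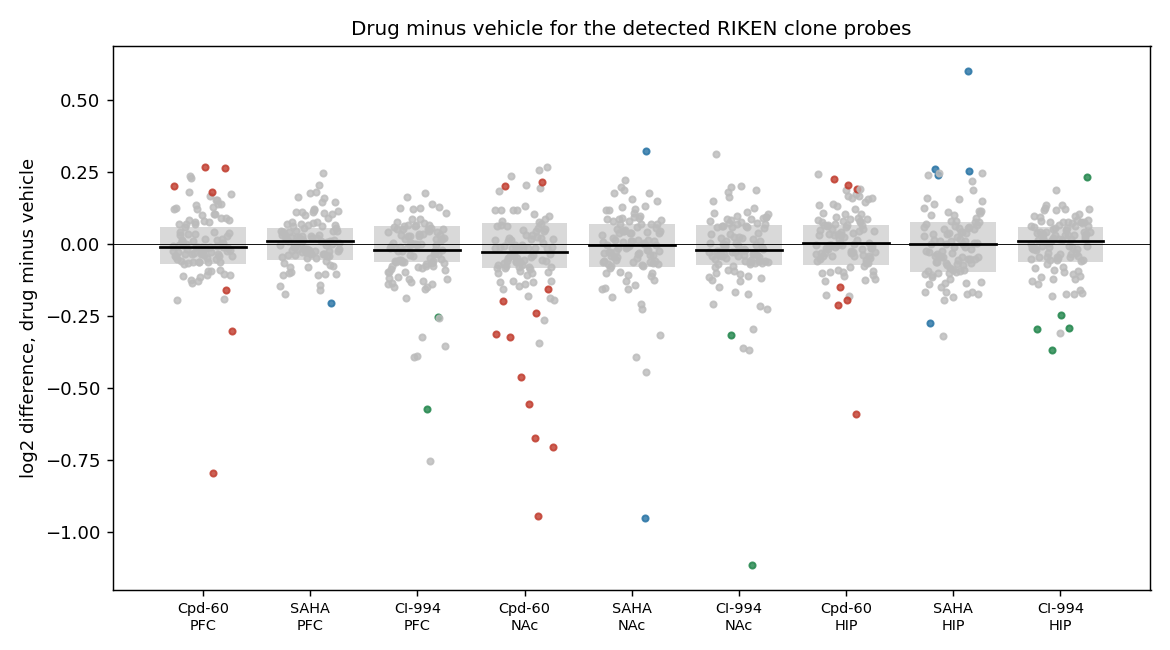
Log2 difference between drug and vehicle means for each of the 103 member probes (points) in the 9 comparisons; coloured points had an unadjusted limma p under 0.05, black lines are the members' medians and grey boxes span the quartiles of all other detected probes. The lowest values are those of B230387C07Rik in the NAc (-0.94, -0.95 and -1.11) and of C330006P03Rik under Cpd-60 in the PFC (-0.79).

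C330006P03Rik had lower signal under Cpd-60 in all 3 regions. In the PFC the log2 intensity was 10.51, 10.70 and 10.48 in vehicle pools 1 to 3 and 9.39, 9.70 and 10.22 in Cpd-60 pools 1 to 3. All Cpd-60 pools lay below all vehicle pools, with pool 3 nearest to them. The difference was -0.79 ± 0.18 (SE), with a limma adjusted p of 0.772.
In the NAc the vehicle pools were at 9.80, 9.83 and 9.66 and the Cpd-60 pools at 9.06, 8.78 and 9.43, a difference of -0.67 ± 0.17 (adjusted p 1.00). In the HIP the vehicle pools were at 9.32, 9.25 and 9.26 and the Cpd-60 pools at 8.31, 8.54 and 9.21, a difference of -0.59 ± 0.20 (adjusted p 0.902). The groups did not overlap in any of the 3 regions, and pool 3 of Cpd-60 was the nearest to vehicle in all of them. Without that pool the PFC difference was -1.02 ± 0.15 and its adjusted p 0.0211, and C330006P03Rik was then 1 of 11 probes called of 16910. Pool 3 was also the only Cpd-60 pool on the second BeadChip of each region, so that pool and BeadChip cannot be told apart. With treatment in the fit, the second BeadChip minus the first was 0.26 ± 0.12, 0.10 ± 0.12 and 0.39 ± 0.10 in the PFC, NAc and HIP (limma adjusted p 0.527, 0.560 and 0.0972). That fit includes Cpd-60 pool 3 itself. Vehicle pool 3, on the same second BeadChips, was below both other vehicle pools in the PFC and NAc and between them in the HIP. The regions share their mice, so they are not independent repeats.

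Under CI-994, C330006P03Rik was at 9.79, 9.96 and 10.22 in the PFC, again below all vehicle pools (-0.57 ± 0.18, limma adjusted p 1.00). In the NAc the CI-994 pools were at 9.44, 9.43 and 9.32, below vehicle as well (-0.37), while in the HIP they were at 8.89, 9.30 and 9.54 and overlapped it (-0.03). Under SAHA the pools overlapped vehicle in every region, with PFC, NAc and HIP differences of -0.16, -0.22 and 0.00. The doses of the drugs differ, and the comparisons share their vehicle pools, so these values stand side by side only.

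B230387C07Rik was lower under all 3 drugs in the NAc. The vehicle pools were at 9.94, 10.00 and 10.11 on the log2 scale, the Cpd-60 pools at 9.13, 9.11 and 8.98, the SAHA pools at 8.003, 9.40 and 9.78 and the CI-994 pools at 8.63, 8.53 and 9.54. No drug pool reached the lowest vehicle pool, but the SAHA pools were spread widely (SD 0.94, against 0.09 in vehicle). The differences were -0.94 ± 0.38, -0.95 ± 0.38 and -1.11 ± 0.38 (SE), with limma adjusted p of 1.00 in each. Without SAHA pool 1 the SAHA difference was -0.42.
In the PFC the vehicle pools of this transcript were spread from 9.08 to 10.37 (SD 0.64), so that neither Cpd-60 (0.15), SAHA (0.25) nor CI-994 (-0.75) stood apart from them. In the HIP the vehicle pools lay between 9.49 and 9.61 and the Cpd-60 pools between 9.71 and 9.75, a difference of 0.17 ± 0.12 in the direction opposite to that in the NAc. The spread of this probe between pools of 1 group was thus large in the PFC and small in the HIP.

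C130080K17Rik was lower under Cpd-60 in the NAc, where vehicle was at 8.50, 8.43 and 8.46 and Cpd-60 at 8.09, 7.46 and 7.74 without overlap (-0.70 ± 0.16, limma adjusted p 1.00). In the PFC the difference was 0.17 and in the HIP 0.04, with overlapping pools. The F test of a regional difference in the Cpd-60 effect gave an adjusted p of 1.00, so the regions were not shown to differ. The NAc pools of SAHA (7.85, 8.43 and 8.17) and CI-994 (8.26, 8.22 and 8.23) also lay below all vehicle pools (-0.32 and -0.23, unadjusted p 0.0751 and 0.188 in limma), the highest SAHA pool by less than the second decimal.

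B230312L03Rik had close replicates, and was lower under CI-994 in both the NAc and the HIP. In the NAc vehicle was at 7.71, 7.70 and 7.73 and CI-994 at 7.31, 7.38 and 7.52 (-0.32 ± 0.08). In the HIP vehicle was at 7.64, 7.71 and 7.64 and CI-994 at 7.42, 7.18 and 7.28 (-0.37 ± 0.08, limma adjusted p 0.869). The groups did not overlap in either region, and the HIP value had the smallest unadjusted p of any member in any of the 9 comparisons. Cpd-60 in the HIP, at 7.51, 7.43 and 7.41, was also below vehicle (-0.21 ± 0.08), whereas in the NAc it overlapped vehicle (-0.06).

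**Figure D2:**
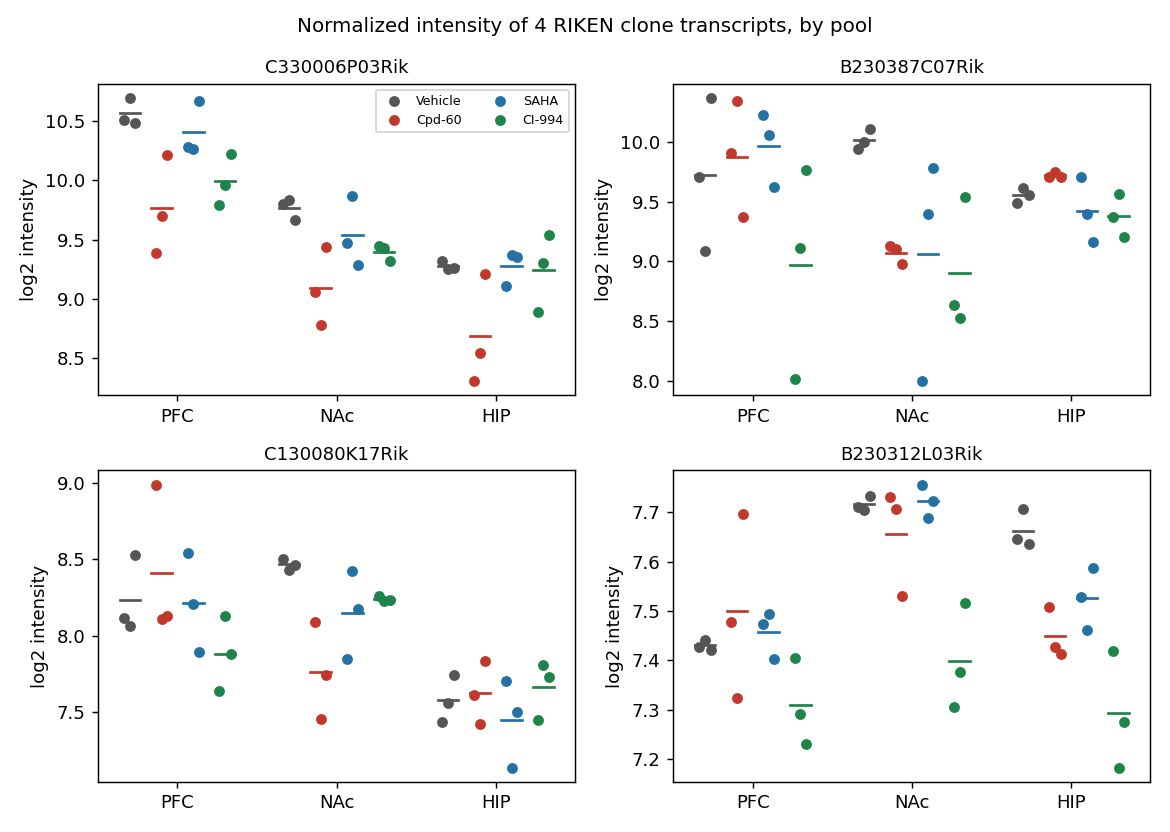
Quantile-normalized log2 intensity of 4 member transcripts in every pool, by region and treatment; each point is 1 array of RNA from 2 mice and each line the mean of 3. The Cpd-60 points of C330006P03Rik lie below the vehicle points in all 3 regions, and those of B230387C07Rik and C130080K17Rik do so in the NAc.

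Other members also had separated groups. C130022E19Rik was at 8.53, 8.62 and 8.79 in the vehicle pools of the NAc and at 7.92, 8.15 and 8.20 in the Cpd-60 pools (-0.56 ± 0.20, limma adjusted p 1.00). Also under Cpd-60, C130057N11Rik was higher in the PFC (vehicle 7.12, 7.25 and 7.12, Cpd-60 7.41, 7.38 and 7.51, 0.27 ± 0.08) and in the HIP (vehicle 6.96, 6.93 and 6.90, Cpd-60 7.07, 7.12 and 7.20, 0.20 ± 0.07). Its difference in the NAc was 0.21, so the rise is not particular to the PFC and HIP. B230343A10Rik (Gas7, a protein of neurite outgrowth) was higher in the PFC by 0.18 and C130066B05Rik by 0.20. B230312I18Rik (Zfp420, a zinc finger protein) and C330023J09Rik were lower there (-0.30 and -0.16). The smallest limma adjusted p among these values was that of C130057N11Rik in the PFC, 0.822.

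In the NAc, Cpd-60 pools were higher for B230210A04Rik (0.20) and C130040D06Rik (Gprin2, 0.22). In the HIP they were higher for the lncRNA B230217C12Rik (0.23 ± 0.08; vehicle 7.10, 7.17 and 7.22, Cpd-60 7.40, 7.37 and 7.40) and for C130032J12Rik (Mapk1ip1l, 0.19), and lower for B230353J12Rik (-0.15) and the lncRNA B230311B06Rik (-0.20 ± 0.08). The second probe of B230217C12Rik had a difference of 0.17 with overlapping pools. In the HIP the summed signal of the 7 astrocyte markers was 13.68 to 13.75 on the log2 scale in the Cpd-60 pools and 13.48 to 13.54 in the vehicle pools, without overlap. That of the 3 blood markers was 12.72 to 13.01 and 13.03 to 13.26, and that of the 5 cortical markers 9.680 to 9.743 and 9.780 to 9.784. The part of these markers in these differences was not tested.

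Under SAHA in the HIP the largest difference was that of C330049H01Rik: vehicle was at 8.39, 8.57 and 8.89 and SAHA at 9.07, 9.27 and 9.31, without overlap (0.60 ± 0.15, limma adjusted p 0.550). In the NAc the same transcript had a difference of -0.45 under SAHA, with overlapping pools. C330002I19Rik (Kidins220) was higher in the HIP by 0.26 and B230304I02Rik by 0.25. B230112P13Rik (Syt7) was lower there under SAHA, at 8.92, 8.86 and 8.83 against 9.13, 9.14 and 9.18 in vehicle (-0.27 ± 0.09), and under CI-994, at 8.94, 8.63 and 8.99 (-0.29 ± 0.09).
Also under CI-994 in the HIP, C130065N10Rik (Fam126b, of the complex that brings phosphatidylinositol 4-kinase to the plasma membrane) was lower (-0.29), and C130022K22Rik (Ccdc174) was higher by 0.23. In the PFC B230120H23Rik (Map3k20, a stress-activated kinase) was lower under SAHA (-0.20) and under CI-994 (-0.25). The smallest limma adjusted p among these values was 0.550, for C330049H01Rik. In the HIP pools of SAHA the summed signals of the 7 oligodendrocyte markers (14.44 to 14.58) and the 7 microglia markers (10.72 to 10.73) lay below those of vehicle (14.65 to 14.81 and 10.79 to 10.87). The summed blood signal lay below that of vehicle in the HIP under both drugs, at 12.35 to 13.02 for SAHA and 12.40 to 12.48 for CI-994 against 13.03 to 13.26. The cortical sum in the HIP was 9.786 to 9.897 under CI-994 and 9.780 to 9.784 in vehicle. In the PFC under SAHA the blood (13.136 to 13.221) and hippocampal sums (11.117 to 11.182) lay below vehicle (13.222 to 13.845 and 11.185 to 11.196). The part of these markers in the members' values was not tested.

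The 5 lncRNA members are B230209E15Rik, B230215L15Rik, B230217C12Rik, B230311B06Rik and C330013E15Rik. B230209E15Rik, whose start window holds no CG, was at 11.23, 11.35 and 11.30 in the vehicle pools of the NAc and at 10.53, 10.69 and 11.28 in the Cpd-60 pools (-0.46 ± 0.20, limma adjusted p 1.00), of which pool 3 lay within the vehicle range. In the HIP it was lower than in the PFC (-0.40 ± 0.16, adjusted p 0.0353). B230311B06Rik was lower in the HIP under Cpd-60 and also under CI-994, at 7.21, 7.23 and 7.36 against 7.45, 7.56 and 7.52 in vehicle (-0.25 ± 0.08), without overlap.

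The drug effects were next compared between regions in 1 fit of all 36 arrays. The F test of the region-by-drug terms called 0 members and 0 probes (0%) at an adjusted p of 0.05 for each drug. At an unadjusted p under 0.05 it gave 7 members for Cpd-60 (1.58% of all probes), 1 for SAHA (3.36%) and 1 for CI-994 (0.911%). The member with the smallest p for Cpd-60 was B230334I05Rik (0.10, -0.24 and 0.01 for PFC, NAc and HIP), for SAHA B230107K20Rik, the mitochondrial aspartate-glutamate carrier Slc25a12 (0.11, 0.32 and -0.05), and for CI-994 C130040D06Rik (-0.02, 0.19 and -0.09).

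Differences between regions were then tested in the 27 drug-treated arrays, which took no part in selecting the members, with the pool as a block, at a limma adjusted p of 0.05. Of the 103 members, 17 were higher and 38 lower in the HIP than in the PFC (25.3% and 32.5% of all probes). In the NAc against the PFC 30 were higher and 28 lower (25.3% and 26.8%), and in the HIP against the NAc 12 were higher and 34 lower (19% and 20.9%). In all, 79 members (76.7%) passed in at least 1 contrast, as did 75.5% of the detected probes that are no member.
The passing members were highest in the PFC in 33 cases (41.8%), in the NAc in 32 (40.5%) and in the HIP in 14 (17.7%). Of the 12691 passing probes that are no member, 42% were highest in the PFC, 26.4% in the NAc and the remaining 31.6% in the HIP; the difference in shares was not tested. For B230 probes these numbers were 23, 15 and 6, for C130 probes 4, 12 and 5 and for C330 probes 6, 5 and 3. Of the 55, 58 and 46 members called, 54, 57 and 44 had the same sign in the vehicle arrays, which are not independent of the choice of members.

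The members highest in the PFC included B230112P13Rik (Syt7), C330006P03Rik and C130074G19Rik, the protein-coding locus whose start region is printed above. The signal of B230112P13Rik was 9.37 to 9.78 (median 9.68) over 9 PFC pools, 8.11 to 8.50 (8.20) over the NAc pools and 8.63 to 9.15 (8.94) over the HIP pools, and the 3 regions did not overlap. The NAc minus PFC difference was -1.39 ± 0.06 (SE; limma adjusted p 2.79e-14) and the HIP minus PFC difference -0.70 ± 0.06 (adjusted p 3.34e-09).
C330006P03Rik was lower than in the PFC in 9 of 9 pools of the NAc (-0.71) and of the HIP (-0.99). C130074G19Rik was at 7.24 to 7.54 in the PFC, above every pool of the NAc (6.49 to 6.99) and of the HIP (6.55 to 6.77), with differences of -0.60 ± 0.06 and -0.72 ± 0.06 (limma adjusted p 2.22e-08 and 2.89e-09). B230343A10Rik (Gas7) was also lower in the HIP than in the PFC in every pool (-0.58 ± 0.06).

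The NAc was the highest region for B230323D24Rik, B230365C01Rik, B230369L08Rik and C130078N17Rik. B230323D24Rik lay between 8.06 and 8.80 in the NAc (median 8.40), 7.17 and 7.42 in the PFC and 6.72 and 7.06 in the HIP, without overlap (1.17 ± 0.08 over the PFC, and HIP minus NAc -1.59 ± 0.08; limma adjusted p 1.02e-10 and 7.88e-13). B230369L08Rik (Sun2, of the inner nuclear membrane complex that links nucleus and cytoskeleton) was lower in the HIP than in the NAc (-1.02 ± 0.07). C130078N17Rik (Ppp1r16b, a regulatory subunit of protein phosphatase 1) was 0.82 ± 0.07 higher in the NAc than in the PFC, in 9 of 9 pools. C330002I19Rik (Kidins220) was 0.55 higher in the NAc than in the PFC, also in 9 of 9 pools.

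The largest differences of the HIP over the PFC were those of C130073O12Rik, C130065N10Rik and B230333E16Rik. C130073O12Rik, at 8.47 to 9.06 in the HIP (median 8.84), 6.91 to 7.16 in the PFC and 7.09 to 8.02 in the NAc, had the largest difference between regions of any member (1.73 ± 0.10 over the PFC and 1.29 ± 0.10 over the NAc, limma adjusted p 2.45e-11 and 1.00e-09). C130065N10Rik (Fam126b) was 0.98 and B230333E16Rik (Thrap3, of pre-mRNA splicing) 0.75 higher in the HIP than in the PFC, in 9 of 9 pools each. Neither passed in the HIP against the NAc, where the 2 BeadChips gave opposite differences, as described with the BeadChips. C130076O07Rik (Nrcam) was 0.53 ± 0.07 higher in the HIP than in the NAc, in 9 of 9 pools. A marker of other cells also differed between these dissections: the choroid plexus marker Ttr had a mean log2 intensity of 12.2 in the HIP and 8.39 in the PFC, and its part in the members' differences was not tested.

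**Figure D3:**
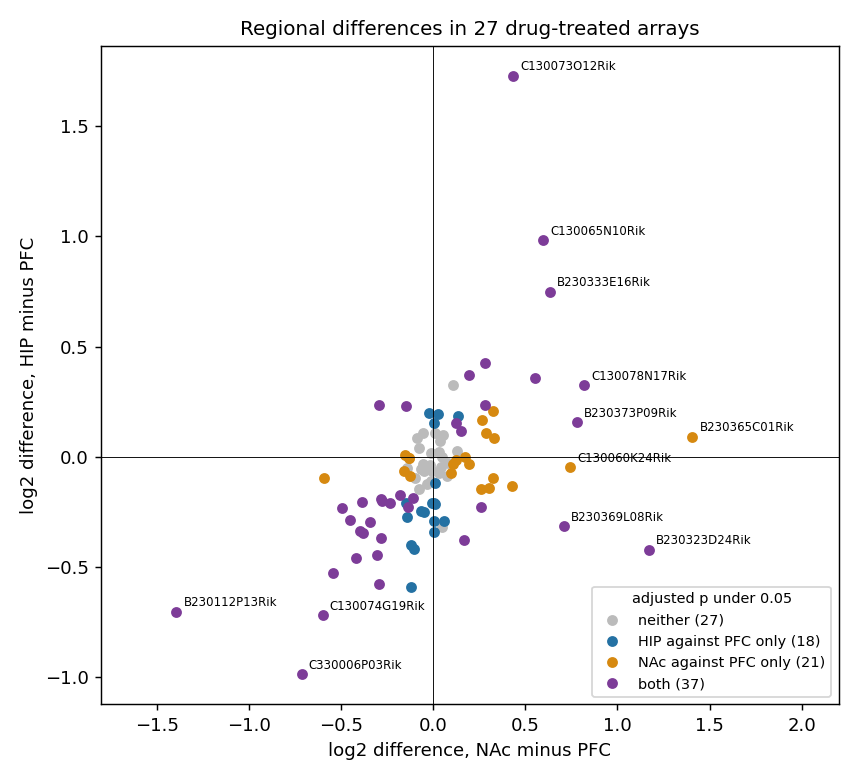
Each point is 1 of the 103 member probes, with its NAc minus PFC difference on the horizontal and its HIP minus PFC difference on the vertical axis (log2 units, 9 drug-treated pools); colours give which of the 2 contrasts had a limma adjusted p under 0.05. 37 members passed in both, 18 in the HIP contrast only, 21 in the NAc contrast only and 27 in neither; both axes share the PFC arrays.

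The NAc values have a further split. The 6 NAc arrays of the second BeadChip differed from the 6 of the first in 30.3% of all probes at an adjusted p of 0.05, with treatment in the fit, whereas the BeadChips of the PFC differed in 0.189% and those of the HIP in 1.56%. Among the members 15, 0 and 1 differed. This comparison was added after the values were seen. The arrays on the 2 BeadChips also came from different pools of mice, so that BeadChip and mice cannot be told apart; the pools are the same in all 3 regions.
B230365C01Rik lay between 7.99 and 9.35 on the first NAc BeadChip and between 10.08 and 10.71 on the second (1.80 ± 0.20, limma adjusted p 3.08e-05). C130065N10Rik lay between 7.83 and 8.39 and between 9.12 and 9.32 (1.13 ± 0.08, adjusted p 8.80e-07), and B230333E16Rik between 7.18 and 7.44 and between 7.91 and 8.20 (0.73 ± 0.07). The BeadChips did not overlap for any of the 3 transcripts in the NAc. Of the 9 striatal markers 2 were higher on the second NAc BeadChip and of the 5 housekeeping genes 0. The summed striatal signal was 14.0 to 14.6 on the first and 13.8 to 14.4 on the second, and the part of these genes in the split was not tested. In the HIP 0 of the 4 choroid plexus markers were higher on the second BeadChip. Their summed log2 signal was 12.98 to 13.43 on the first and 10.38 to 12.39 on the second, without overlap. Their part in the HIP values of the members was not tested.

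The regional values of these 3 transcripts moved with the split. For B230365C01Rik the HIP minus NAc difference was -0.03 (limma adjusted p 0.886) in the 4 drug-treated pools of the first BeadChips. In the 5 pools of the second it was -2.34. The NAc minus PFC difference of B230365C01Rik was 0.55 in the former pools and 2.09 in the latter. The HIP minus NAc difference of C130065N10Rik was 1.14 ± 0.13 (limma adjusted p 1.78e-05) in the first pools and -0.21 ± 0.08 (adjusted p 0.0558) in the second. For B230333E16Rik it was 0.60 ± 0.07 and -0.27 ± 0.05 (adjusted p 2.26e-05 and 0.00101), past the threshold in opposite directions. In the first pools alone 26 members passed in the NAc against the PFC (25.2%, and 27.8% of all probes) and in the second 47 (45.6%, and 51.8%), against 58 in all 9 (56.3%, and 52.1%).

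**Figure D4:**
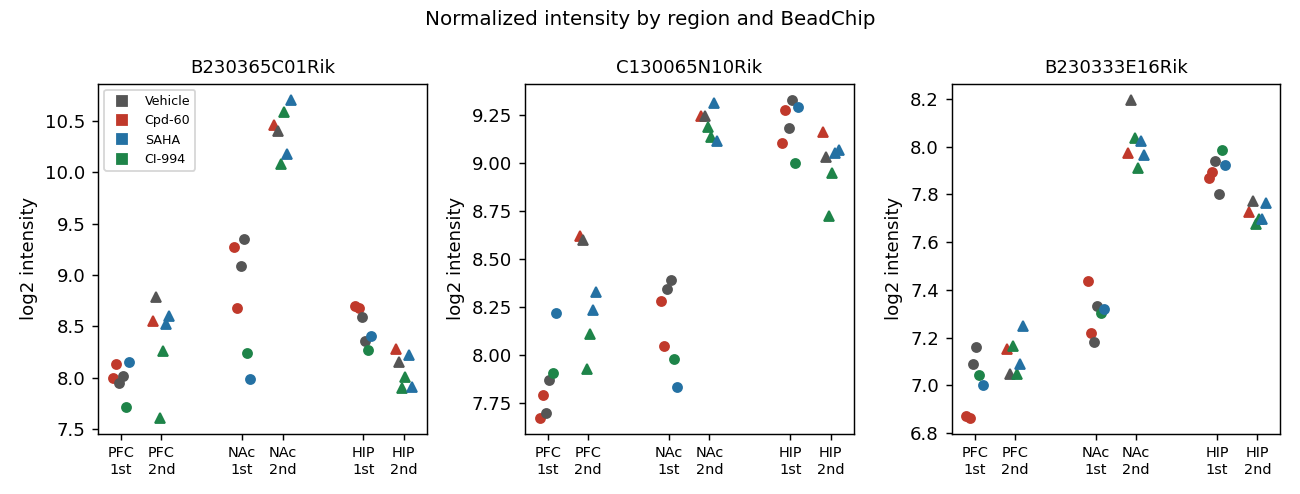
Log2 intensity of B230365C01Rik, C130065N10Rik and B230333E16Rik in all 36 arrays, by region and by first (circles) or second (triangles) BeadChip of the region, coloured by treatment. In the NAc the second BeadChip is higher than the first for all 3 transcripts, without overlap; in the HIP B230365C01Rik is lower on the second (-0.35).

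Members with more than 1 detected probe show how far a symbol stands for 1 measurement. The 2 probes of B230217C12Rik were both lower in the NAc than in the PFC (-0.45 and -0.39), as were the 2 of B230317C12Rik (Dipk1b; -0.38 and -0.40). The 3 probes of B230339M05Rik (Ralgapb, of the complex that inactivates Ral GTPases) were all lower in the HIP than in the PFC (-0.19, -0.34 and -0.42, limma adjusted p 0.000677, 3.00e-05 and 0.000308). In these symbols the probes had the same direction.
The 4 probes of C330023M02Rik (Naa25, of the NatB N-terminal acetyltransferase) differed: under Cpd-60 in the NAc 1 probe was at 8.02, 8.13 and 8.27 against 8.55, 8.41 and 8.42 in vehicle (-0.32 ± 0.10), while the others had differences of -0.10, 0.12 and -0.01 with overlapping pools. The lower value of this symbol in the NAc is therefore that of 1 probe of 4. Of the 2 probes of B230215L15Rik (Sox2ot, an lncRNA that overlaps Sox2), 1 was 0.24 higher in the HIP than in the PFC and the other differed by 0.03. Of the 2 of C330001K17Rik (Ccdc151, of ciliary dynein docking), the HIP minus PFC differences were -0.29 and -0.07, of which the first passed, and for B230340J04Rik they were 0.17 and -0.09, of which neither passed.

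For 12 of the renamed symbols the array also held detected probes under the current gene symbol, a comparison chosen after the values were seen. With the brightest probe of each, 8 of the 12 genes were called in the HIP against the PFC through both the clone probe and the gene probe, 7 of them in the same direction. In the NAc against the PFC 5 were called through both, all in the same direction. Of the others, 2 were called there through the clone probe only and 5 through neither. A less bright gene probe of Ociad1 (0.57) and 1 of Birc2 (0.25) were higher in the HIP than in the PFC. The clone probes of these genes were not called there (-0.05 and -0.03). Less bright gene probes of Prrt3, Gabrb1 and Tacc1 had the direction of their clone probes. In the NAc against the PFC a less bright gene probe of Gabrb1 (0.88), 1 of Ociad1 (0.32) and 1 of Birc2 (0.28) were called higher. The clone probe of Birc2 was called there as well (0.11), but those of Gabrb1 and Ociad1 were not (0.03 and -0.14). Both probes of B230107K20Rik and Slc25a12 were lower in the HIP (-0.17 and -0.30), and so were those of B230339H12Rik and Tmco3 (-0.37 and -0.35) and of B230206N24Rik and Prrt3 (-0.21 and -0.48). The clone probe of the GABA-A receptor subunit Gabrg3, B230362M20Rik, was higher in the NAc than in the PFC by 0.26 and its gene probe by 0.15.
With the brightest probes, the exception in the HIP against the PFC was Nrcam. Its clone probe C130076O07Rik was higher in the HIP (0.24 ± 0.07, limma adjusted p 0.00930), and its gene probe lower (-0.38 ± 0.08, adjusted p 0.000490). Both were lower in the NAc than in the PFC (-0.30 and -0.79). Gas7 had 3 gene probes besides B230343A10Rik, of which 2 were lower in the HIP than in the PFC (-0.18 and -0.49) and 1 higher (0.22), so that the probes of 1 gene differed in direction. In the NAc against the PFC the clone probe of Gas7 was lower (-0.29), and its gene probes differed by -0.16, 0.44 and -0.07.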

How the data were processed

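RNA of 36 tissue pools was measured on Illumina MouseWG-6 arrays. The authors deposited for each array an intensity per probe, on a linear scale and not normalized between arrays, with a detection p-value per probe from the scanner software, whose version and genome build are not given in the sources used here. The study's methods name quantile normalization and an analysis of variance with Tukey's test. Here the intensities of all arrays were quantile-normalized together, set to at least 1 and taken to log2 (R 4.3.3, limma 3.58.1, statmod 1.5.0).

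Probes with a detection p-value of at most 0.01 in 3 of 3 vehicle arrays of a region were tested (16910). limma was fitted per region for drug against vehicle, in the 27 drug-treated arrays with the pool as a block for regions, and in all arrays with the pool as a random block for region-by-drug terms, with Benjamini-Hochberg adjustment over all tested probes. The number of arrays limits the precision: an exact permutation test of 3 against 3 pools cannot go below a two-sided p of 0.1. The fits were tested on simulated data with independent noise and no BeadChip or pool effect. There 200 probes were raised by 1 on the log2 scale for Cpd-60 in the NAc, and 92.5% were recovered. The simulation does not show how smaller differences or a BeadChip split would fare.

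The members and lists were chosen with earlier results of these data known. The members named were 3 that earlier results had named, up to 3 separated members with an unadjusted p under 0.05 each way per drug comparison, the 3 highest and 3 lowest levels, the 3 largest differences each way per region contrast, members with several probes, and the smallest region-by-drug p per drug. The lncRNA members, the start windows, the remaining members called in a count, and the gene probes of renamed members were chosen after their values were seen. Start windows and gene names came from RefSeq (GRCm38.p6).

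Replicate numbers were checked for pairing through the correlation of deviations from the group means. Every same-numbered pair of vehicle and Cpd-60 correlated above 0.1 in the PFC (0.429, 0.201 and 0.609) and in the NAc (0.359, 0.547 and 0.735), arrays of which also shared BeadChips, and 3 of 18 pairs of groups did so in all. The description of 1 Cpd-60 pool in each region names another pool than its title, and the title was followed. Alternatives in normalization, filter, block, test and left-out pools were tried; the fits within BeadChips were chosen after seeing the data.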

Additional observations from a re-analysis of the deposited data

Results flagged for a closer look

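Under Cpd-60, 4 members had all 3 pools on one side of vehicle in one region and on the other side in another (3.88%), as did 109 of all 16910 tested probes (0.645%); for SAHA and CI-994 0 members did, and 1.08% and 0.656% of all probes. B230387C07Rik differed by 0.17 in the HIP and by -0.94 in the NAc. B230334I05Rik differed by 0.10 in the PFC and by -0.24 in the NAc, C130040D06Rik by -0.090 in the PFC and by 0.22 in the NAc, and B230311B06Rik by 0.080 in the PFC and by -0.20 in the HIP. The F test over the 3 regions gave limma adjusted p of 1.00 for each of the 4, so the regions were not shown to differ. The 7 members with an unadjusted p under 0.05 in that test include 3 of these (0.00572 for B230334I05Rik, 0.00754 for C130040D06Rik and 0.0150 for B230311B06Rik) and not B230387C07Rik (0.0660).

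Of the 273 probes with these symbols that were below the detection limit in vehicle, 22 were detected in all 3 arrays of at least 1 drug group (8.06%), against 4.62% of all 28371 probes below the limit, and 251 in none. By group the number was 17 for SAHA and 11 for CI-994 in the NAc, 7 for SAHA in the PFC and 5 for Cpd-60 in the HIP, and between 1 and 3 in the other 5 groups. A detection call has no test of a difference behind it, and whether these probes differed from vehicle was not tested here.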

How the results depend on the processing

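With 0 members past the adjusted threshold in all 9 drug comparisons, the alternatives gave 0 as well, with 1 exception: leaving out 1 pool gave 0 to 1 members for Cpd-60 in the PFC, the 1 being C330006P03Rik without Cpd-60 pool 3 (adjusted p 0.0211). The 10 members lower under Cpd-60 in the NAc at an unadjusted p under 0.05 (2.51% of all probes) were 8 with neqc normalization (2.44%), 8 in the 27 arrays without CI-994 (2.03%), 11 with the BeadChip as a block (4.52%), 5 with Tukey's test (0.899%) and 5 to 10 with 1 pool left out (5 without Cpd-60 pool 1 or 2, at 2.37% and 2.12%, and 6 without vehicle pool 1 or 2, at 1.25% and 1.29%). Without a detection filter the set is larger: 19 of 376 probes with these symbols (5.05%) were lower, and 2.48% of 45281. With the replicate block 10 were lower in the NAc and 5 higher and 2 lower in the PFC under Cpd-60, and the block changed no adjusted call; without the replicate block 54, 57 and 47 members passed between regions (HIP and PFC, NAc and PFC, HIP and NAc). The count of 46 for the HIP against the NAc was 30 without the SAHA pools (29.7% of all probes, from 39.9%), and that of 58 for the NAc against the PFC was 26 in the pools of the first BeadChips (27.8%, from 52.1%); the cause was not tested, and both rest on fewer arrays. With 1 pool left out these 3 counts ranged over 50 to 57, 49 to 54 and 40 to 45. These ranges, and the counts with and without the replicate block, have no share of all probes beside them and show no excess of members. Of 31 named drug values, 20 lost their unadjusted p under 0.05 in some alternative and 0 changed sign, and of 18 named region values 1 lost its call, B230365C01Rik in the HIP against the NAc. Signals near background, where many members lie, limit what these arrays could show.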
